A study of Mus musculus with 8 samples.

Results

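Mature T cell markers are 9 genes chosen by name from the 23420 genes measured in the aortas: Cd3d, Cd3e and Cd3g, which encode the delta, epsilon and gamma chains of CD3; Lck, Cd2, Cd5, Cd6, Cd28 and Il7r. All 9 passed the filter on low values, a mean of at least 10 normalized reads over the 8 libraries, which 14931 genes passed. RNA-seq was performed on whole aortas of 8 mice after 28 days of angiotensin II infusion at 1 µg/kg/min, a treatment that gives rise to abdominal aortic aneurysm in ApoE-deficient mice. All 8 recipients were ApoE-/- mice irradiated at 6 weeks of age and left to recover for 6 weeks after transplantation. In the Ntn1-/-→ApoE-/- group (n = 4, libraries A to D) the transplanted fetal liver cells were Ntn1-/- ApoE-/-, and in the WT→ApoE-/- group (n = 4, libraries A to D) they were Ntn1+/+ ApoE-/-, so that donors and recipients of both groups lacked ApoE and all were given angiotensin II. The transplant replaces blood-forming cells, whereas the aortic wall and the other cells of the host keep an intact Ntn1 gene. The question addressed here is whether the level of T cell transcripts in the aneurysm-prone aorta differs when blood-forming cells lack Ntn1, the gene for the guidance protein netrin-1.

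Mature T cells carry on their surface a T cell receptor, which binds the antigen but has no signalling tail of its own. It is held together with the CD3 chains, whose tails are phosphorylated by the kinase LCK once the receptor is engaged. CD2, CD5, CD6 and CD28 sit beside the receptor and strengthen or restrain its signal, and the IL-7 receptor keeps resting T cells alive. In the diseased aorta, T cells gather mainly in the adventitia and around the fat that surrounds the vessel, as a minority next to macrophages.

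Depth was 22485117 to 28202931 reads in genes in Ntn1-/- libraries and 19879329 to 25083874 in WT libraries, and 1 read was worth 0.831 to 1.18 normalized reads. In whole aorta Ntn1 itself differed by 0.04 on the log2 scale (standard error 0.24, limma, adjusted p = 0.959), which does not check the labels because host cells keep the gene. The aortic wall was well represented, with Myh11, the smooth muscle myosin, at 41550 to 142174 normalized reads. Several libraries stood apart through genes of neighbouring tissues. The skeletal muscle actin Acta1 was at 2188 and 2175 in Ntn1-/- B and C and at 1083 in WT A, against 40.7 to 375.9 in the others. The liver product Alb was at 4246, 4242 and 4640 in WT A, C and D, against 77.0 to 1102 in the others. The sum of 6 neuron genes was 7805 and 6022 in Ntn1-/- B and C, against 1274 to 2217 in the others. Each library was left out in turn, Ntn1-/- B and C were left out together, and these were left out with WT A and C, whereas the libraries with high Alb were not all left out at once.

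None of the 9 T cell markers differed between the groups beyond the spread between mice. In limma, across all 14931 genes, 0 of 9 passed an adjusted p of 0.05, where the background was 0% of all genes, and 0 of 9 had an unadjusted p under 0.05, where the background was 15.6% (8.37% higher and 7.25% lower in Ntn1-/-→ApoE-/- aortas). edgeR and DESeq2 also called 0 of 9 at that adjusted p, where DESeq2 called 3.63% of all genes. The values of the groups overlapped for 9 of 9 markers, while 10.5% of all genes had groups that did not overlap. The estimate was lower in Ntn1-/-→ApoE-/- aortas for 8 of 9 markers, against 52.4% of all genes, and the sign of 7 of the 9 changed in at least 1 alternative analysis. The median log2 fold change over the 9 was -0.08, against -0.01 over all genes tested. In whole tissue, fewer T cells and less of a transcript per T cell cannot be told apart.

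**Figure D1:**
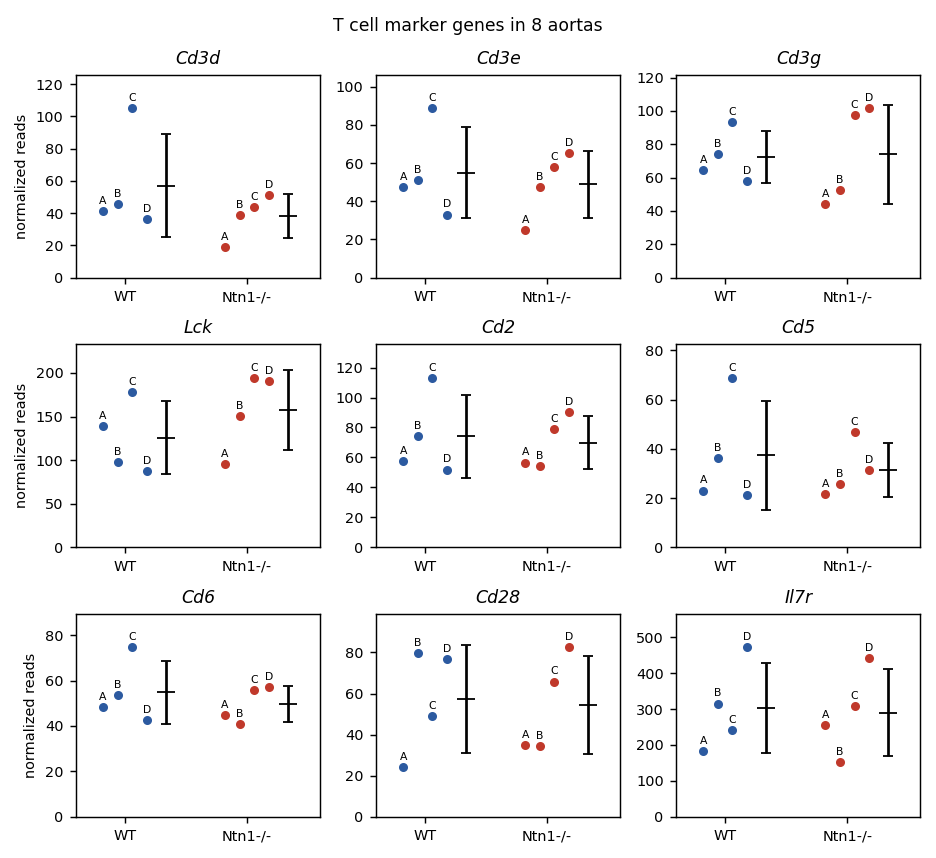
Normalized reads (linear axis from 0) of the 9 T cell markers in each library, with letters A to D for the mice, WT→ApoE-/- in blue and Ntn1-/-→ApoE-/- in red. The black bar and whiskers are the mean ± SD of 4 libraries. The groups overlap in every panel, and WT C is the highest library in 5 of the 9.

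The CD3 chains are the defining T cell genes of the list, and their genes form a cluster on chromosome 9. In the annotation of mm9 (GENCODE vM1), Cd3g lies on the minus strand from 44777655 to 44788514, Cd3d on the plus strand from 44789876 to 44795135 and Cd3e on the minus strand from 44806826 to 44817673. Cd3g and Cd3d start back to back, with 1361 bases between the genes, and 11690 bases lie between Cd3d and Cd3e. No gene of that annotation overlaps any of the 9 markers on either strand.

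The 250 bases before the start are shown for the 3 CD3 genes, because they encode chains of 1 complex from 1 gene cluster, and for both starts of Lck, because the table counts reads from both starts as 1 gene. They are RefSeq sequences of GRCm38.p6, printed 5′ to 3′ along the gene's strand, and the capitals mark matches on either strand to the motifs of T cell regulators GGAAG (ETS family), TGTGGT (RUNX family), CTTTGA (TCF and LEF family) and CAGNTG (E-box).
Cd3g, chr9:44980432-44980681, minus strand: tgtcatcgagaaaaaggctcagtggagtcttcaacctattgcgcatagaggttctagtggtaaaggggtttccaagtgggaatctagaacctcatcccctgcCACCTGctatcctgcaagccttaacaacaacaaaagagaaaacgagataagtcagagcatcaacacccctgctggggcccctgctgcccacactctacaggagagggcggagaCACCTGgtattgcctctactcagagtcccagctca
Cd3d, chr9:44981536-44981785, plus strand: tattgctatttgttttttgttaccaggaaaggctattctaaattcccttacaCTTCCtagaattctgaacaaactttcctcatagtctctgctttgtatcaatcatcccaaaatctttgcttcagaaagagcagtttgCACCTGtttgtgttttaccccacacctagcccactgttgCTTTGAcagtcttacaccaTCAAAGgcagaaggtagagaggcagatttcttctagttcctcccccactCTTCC
Cd3e, chr9:45009612-45009861, minus strand: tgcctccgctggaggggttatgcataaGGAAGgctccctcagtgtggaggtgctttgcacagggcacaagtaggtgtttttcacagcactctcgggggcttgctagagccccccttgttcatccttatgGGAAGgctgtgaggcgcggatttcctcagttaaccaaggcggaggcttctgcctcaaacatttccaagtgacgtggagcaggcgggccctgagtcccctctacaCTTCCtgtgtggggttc
Lck proximal start, chr4:129558373-129558622, minus strand: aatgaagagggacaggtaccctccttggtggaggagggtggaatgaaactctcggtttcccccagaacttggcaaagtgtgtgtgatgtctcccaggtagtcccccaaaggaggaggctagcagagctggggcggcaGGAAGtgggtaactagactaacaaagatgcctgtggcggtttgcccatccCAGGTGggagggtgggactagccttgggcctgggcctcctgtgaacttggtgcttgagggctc
Lck distal start, chr4:129573642-129573891, minus strand: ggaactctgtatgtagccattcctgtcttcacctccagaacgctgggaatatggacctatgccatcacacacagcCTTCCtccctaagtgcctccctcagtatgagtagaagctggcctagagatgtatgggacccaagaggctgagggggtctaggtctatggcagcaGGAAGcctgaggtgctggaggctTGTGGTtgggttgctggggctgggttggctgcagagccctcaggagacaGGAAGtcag

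The 3 CD3 windows did not carry the same motifs. The window of Cd3e held 3 matches to GGAAG and none to the other motifs, that of Cd3g held 2 matches to CAGNTG and none to the others, and that of Cd3d held 2 matches to GGAAG, 1 to CAGNTG and 2 to CTTTGA. Of the Lck windows, the distal one held 3 matches to GGAAG and 1 to TGTGGT, and the proximal one 1 match to GGAAG and 1 to CAGNTG. Over all 32851 promoter windows of this length, GGAAG was found in 64.1%, CAGNTG in 44.8%, TGTGGT in 14% and CTTTGA in 13.8%, and a match is a description of letters, not a bound site. The proximal start of Lck is the one known to be used in thymocytes and the distal one, 15269 bases upstream, in mature T cells. Among the other markers, RefSeq windows of Cd5 and Il7r were matched, while Cd2, Cd6 and Cd28 had no match in the table used.

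Cd3d had the largest difference of the 9 markers. It was measured at 19.1, 39.0, 43.8 and 51.2 normalized reads in Ntn1-/- A to D and at 41.5, 45.4, 104.9 and 36.5 in WT A to D. WT C was high and Ntn1-/- A low, and the other 6 libraries of both groups shared the range between them. The means were 38.3 ± 13.7 and 57.1 ± 32.1 (SD, n = 4 each), and the log2 fold change was -0.51 (standard error 0.40, limma, adjusted p = 0.558). The 95% confidence interval of the fold ran from 0.371 to 1.32. The log2 fold change of Cd3d was -0.18 without WT C and -0.22 without Ntn1-/- A, and it ran from -0.68 to -0.55 with each of the others left out in turn.

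Cd3e was measured at 24.9, 47.5, 57.8 and 65.1 normalized reads in Ntn1-/- A to D and at 47.2, 51.0, 88.6 and 33.0 in WT A to D. WT C was again the highest and Ntn1-/- A the lowest. The log2 fold change was -0.16 (standard error 0.37, limma, adjusted p = 0.865), from means of 48.8 ± 17.5 and 54.9 ± 23.7 (SD, n = 4 each). It was 0.13 without Ntn1-/- A and 0.10 without WT C, so that either of these libraries set its direction.

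Cd3g was measured at 44.0, 52.3, 97.7 and 101.5 normalized reads in Ntn1-/- A to D and at 64.5, 74.1, 93.3 and 57.7 in WT A to D. Here Ntn1-/- C and D were the highest libraries and Ntn1-/- A and B the lowest, with all WT libraries between them. The log2 fold change was -0.04 (standard error 0.30, limma, adjusted p = 0.966), and it was positive in 9 of 22 alternatives.

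Of the 36 pairs of markers, the ratio of Cd3d to Cd3e was among the steadiest, and it was 1 of 2 pairs whose groups did not overlap. It was 0.767, 0.820, 0.759 and 0.787 in Ntn1-/- A to D and 0.878, 0.891, 1.18 and 1.11 in WT A to D, chosen after the ratios were seen. In reads, Cd3d took 43.4%, 45.1%, 43.1% and 44.0% of the reads of both genes in Ntn1-/- A to D and 46.8%, 47.1%, 54.2% and 52.5% in WT A to D. The exact 95% binomial intervals, which cover counting error only, overlapped between every pair of libraries, with 29.8% to 57.7% in Ntn1-/- A (53 reads) and 46.3% to 62.0% in WT C (166 reads). No pair of libraries could be told apart by these intervals at this depth. The other pair was Cd3d over Lck, at 0.2 to 0.268 in Ntn1-/- libraries and 0.298 to 0.588 in WT libraries. The share of such pairs among other genes was not computed, so 2 of 36 cannot be set against a background of ratios. In normalized reads of single genes, 10.5% of all genes had groups that did not overlap.

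Lck, the kinase that phosphorylates the CD3 chains and acts from the tails of CD4 and CD8, was the only marker with a higher estimate in Ntn1-/-→ApoE-/- aortas. It was measured at 95.6, 150.2, 194.3 and 190.9 normalized reads in Ntn1-/- A to D and at 139.3, 97.3, 178.4 and 87.2 in WT A to D. Ntn1-/- B, C and D and WT A and C were high, and Ntn1-/- A lay among WT B and D. The log2 fold change was 0.33 (standard error 0.29, limma, adjusted p = 0.608), with a 95% confidence interval of the fold from 0.794 to 1.99. Its sign held in all 22 alternatives, with values from 0.16 to 0.55, and none of them called it.

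CD2 is an adhesion receptor for CD48 in mice, and CD5 and CD6 are related scavenger receptor family members that dampen or tune receptor signals. Cd2 was measured at 56.5, 54.2, 78.7 and 90.2 normalized reads in Ntn1-/- A to D and at 57.6, 74.1, 113.1 and 51.9 in WT A to D. Its log2 fold change was -0.05 (standard error 0.28, limma, adjusted p = 0.952), and WT C was the highest library. Cd6 lay within a narrower band, at 44.9, 40.9, 55.8 and 57.3 in Ntn1-/- A to D and at 48.4, 53.8, 74.6 and 42.4 in WT A to D. Cd6 had the smallest standard error of the 9, with a log2 fold change of -0.12 (standard error 0.21, limma, adjusted p = 0.819) and a 95% confidence interval of the fold from 0.656 to 1.29. Cd5 had the lowest mean of the 9 in normalized reads over the 8 libraries. It was measured at 21.6, 25.7, 46.8 and 31.2 in Ntn1-/- A to D and at 23.0, 36.1, 68.8 and 21.2 in WT A to D. The log2 fold change of Cd5 was -0.14 (standard error 0.40, limma, adjusted p = 0.893), and it was 0.20 without WT C. Cd5 and Cd6 are neighbours on chromosome 19 of mm9, both on the minus strand, from 10792633 to 10813464 and from 10863831 to 10904548, with 50366 bases between them.

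CD28 is the receptor for CD80 and CD86 that supplies the second signal of T cell activation, and Il7r encodes the alpha chain shared by the receptors for IL-7 and, with CRLF2, for TSLP. Both followed another pattern over the libraries than the CD3 genes. Cd28 was measured at 34.9, 34.2, 65.8 and 82.4 normalized reads in Ntn1-/- A to D and at 24.2, 79.7, 49.0 and 76.6 in WT A to D. WT B and D and Ntn1-/- D were the highest libraries of Cd28, and WT C, the highest library for Cd3d and Cd3e, lay in the middle. Its log2 fold change was -0.04 (standard error 0.44, limma, adjusted p = 0.978), with the largest standard error of the 9 and an interval of the fold from 0.489 to 1.94. Il7r was measured at 256.0, 152.1, 307.9 and 442.4 normalized reads in Ntn1-/- A to D and at 183.1, 315.1, 241.3 and 471.4 in WT A to D. WT D and Ntn1-/- D were the highest libraries, and WT D was among the lowest for the CD3 genes. Its log2 fold change was -0.08 (standard error 0.37, limma, adjusted p = 0.943), from means of 289.6 ± 120.7 and 302.7 ± 124.8 (SD, n = 4 each).

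**Figure D2:**
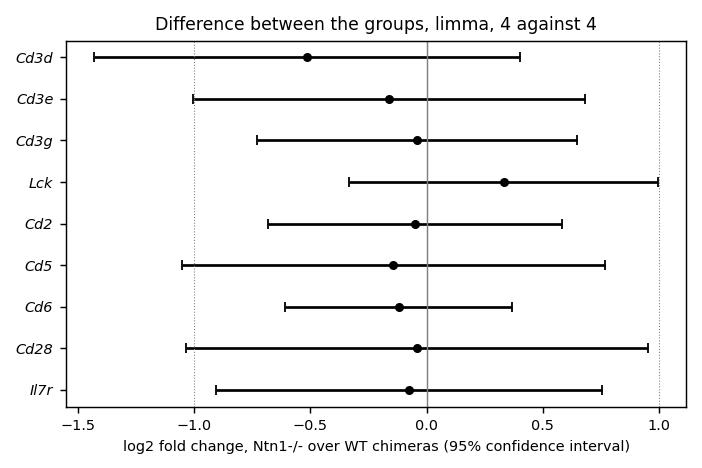
Log2 fold change of the 9 T cell markers, Ntn1-/-→ApoE-/- over WT→ApoE-/- (x axis; points, limma estimates; bars, 95% confidence intervals; 4 libraries a group; dotted lines at a log2 change of 1 in either direction). Every interval includes 0, Cd3d lies furthest to the left at -0.51 and Lck furthest to the right at 0.33.

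Per length, the order of the levels ran from Il7r to Cd28. Mean normalized reads per kb of annotated exon, over 8 libraries, were 92.3 ± 35.5 (SD) for Il7r, 68.4 ± 20.6 for Cd3g, 48.4 ± 15.1 for Lck, 41.4 ± 12.4 for Cd2, 36.1 ± 13.6 for Cd3e, 36.0 ± 18.9 for Cd3d, 16.6 ± 7.95 for Cd5, 15.3 ± 3.21 for Cd6 and 9.12 ± 3.79 for Cd28. Neighbours in this order mostly overlapped: Il7r was above Cd3g in 5 of 8 libraries, Lck above Cd2 in 5, Cd3e above Cd3d in 6 and Cd5 above Cd6 in 4. The step from Cd3d to Cd5 was the one found in 8 of 8 libraries. All 3 CD3 chains are needed for 1 receptor, and Cd3g was above Lck, the gene next below it, in 7 of 8 libraries.

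**Figure D3:**
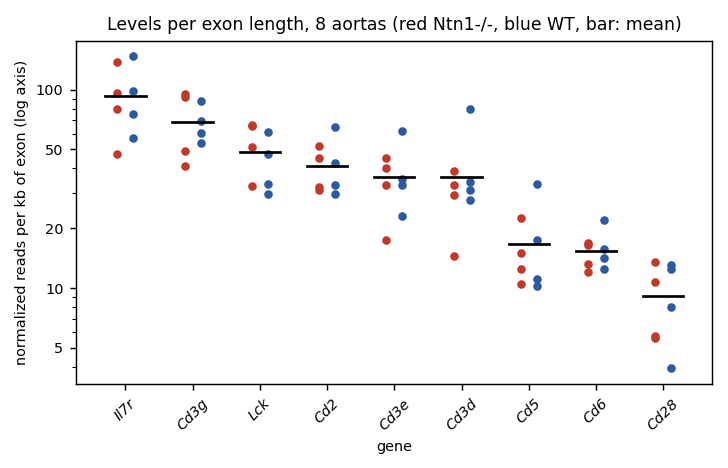
Normalized reads per kb of annotated exon (log axis) of the 9 T cell markers in each library, ordered by the mean over 8 libraries (black bar); red, Ntn1-/-→ApoE-/-; blue, WT→ApoE-/-. Il7r has the highest mean at 92.3 and Cd28 the lowest at 9.12, and the spread over libraries of most genes reaches the next gene.

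Across mice, the markers varied widely within each group. Ntn1-/- C was above the mean of all libraries on the log2 scale for 9 of 9 markers, Ntn1-/- D and WT B for 8, WT C for 7, WT D for 2, Ntn1-/- B and WT A for 1 and Ntn1-/- A for 0. The range over the 8 libraries was widest for Cd3d, at 2.40 on the log2 scale, and narrowest for Cd6, at 0.85. Among themselves, Cd2 and Cd6 were the most alike, with a ratio that stayed between 1.19 and 1.58 over the 8 libraries, and the ratio of Cd5 to Il7r had the widest range, 6.33-fold. By the mean absolute difference of their log2 profiles, Cd3d and Cd28 were furthest apart at 0.68 and Cd2 and Cd6 nearest at 0.12. Set against the mean of the 3 CD3 genes in the same library, Il7r ran from 2.52 in WT C to 11.1 in WT D, and Cd28 from 0.474 in WT A to 1.81 in WT D. Lck was at 3.25, 3.25, 2.93 and 2.63 times the CD3 mean in Ntn1-/- A to D and at 2.73, 1.71, 1.87 and 2.06 in WT A to D. The Lck ratio of WT A lay among those of the Ntn1-/- libraries, so the groups overlapped.

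**Figure D4:**
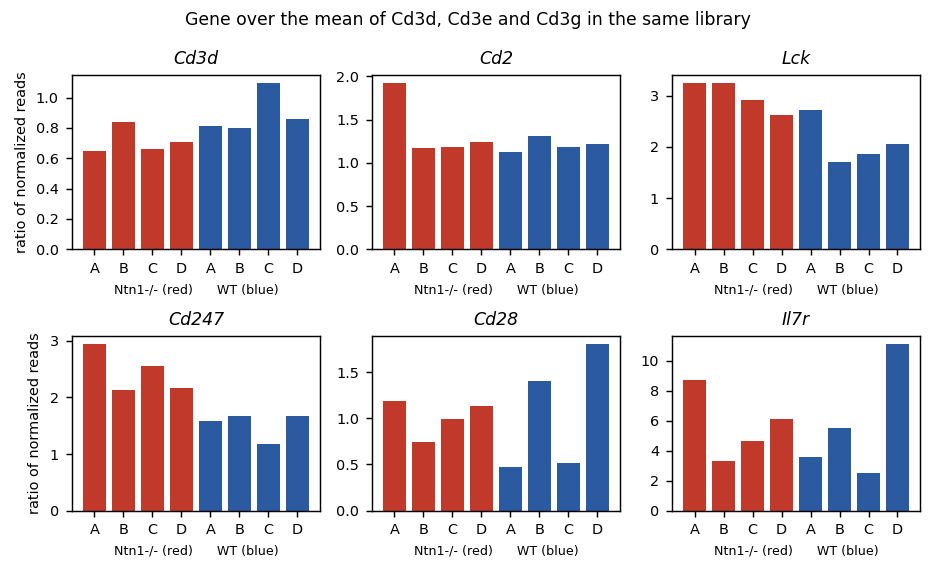
Ratio of a gene to the mean of Cd3d, Cd3e and Cd3g in the same library (y axis from 0, normalized reads over normalized reads) for 5 T cell markers and for Cd247, with red bars for Ntn1-/- A to D and blue bars for WT A to D. Cd247 is higher in all 4 red bars than in any blue bar, Lck overlaps through WT A, and Il7r and Cd28 are at their highest in WT D.

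Genes with a profile most like the mean of the 9 markers included Bambi-ps1, Rhbdl1, Tbx5, Plvap, Phgdh, Sox17, Dnaaf3, AA467197 and Prps1. Likeness was the mean absolute difference of log2 profiles, centred on each gene's mean, over 8 libraries, and it was 0.08 to 0.13 for these genes against a median of 0.37 over all genes. None of those named is in any T cell list used here. Among all 14931 genes, Cd2 ranked 5, Cd3g 10 and Cd6 36 by this measure. Cd3e ranked 457, Cd5 845, Cd3d 2174 and Lck 2901. Cd28 ranked 9501 and Il7r 10660, although all 9 markers entered the mean profile.

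The other genes of the T cell receptor complex and its signalling were not called by limma either. Of 21 in the table, 18 were tested and 0 were called by limma, 14 with a higher and 4 with a lower estimate in Ntn1-/-→ApoE-/- aortas, and the median log2 fold change was 0.11. The genes of the receptor's constant regions were looked for as Trac, Trbc1, Trbc2, Tcra and Tcrb, but no gene measured here had these names. Cd247, which encodes the zeta chain of the CD3 complex and is also expressed in NK cells, was measured at 86.4, 98.9, 169.4 and 157.9 normalized reads in Ntn1-/- A to D and at 80.6, 95.5, 113.1 and 70.7 in WT A to D. Its log2 fold change was 0.47 (standard error 0.25, limma, adjusted p = 0.403) and the groups overlapped. Set against the CD3 mean, Cd247 was at 2.14 to 2.94 in Ntn1-/- libraries and 1.18 to 1.68 in WT libraries, with no overlap, a ratio chosen for that after it was seen. Zap70, the kinase that docks on phosphorylated CD3 and zeta chains, and the adaptor gene Lat lay close to no difference, with log2 values of 0.01 (standard error 0.42) and 0.10 (standard error 0.30) and limma adjusted p of 0.991 and 0.900. Plcg1, a phospholipase found in many cell types beside T cells, was the 1 gene of the 18 with an unadjusted p under 0.05, against 15.6% of all genes. Plcg1 was at 943.2, 1122, 879.9 and 1050 in Ntn1-/- B, A, C and D and at 685.9 to 809.4 in WT libraries. Its difference was 0.39 on the log2 scale (standard error 0.10, limma, adjusted p = 0.248). DESeq2 called 1 of the 18, Plcg1, with an adjusted p of 0.020, against 3.63% of all genes.

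The ligands and partners of the markers were split evenly, with 8 higher and 8 lower estimates among 16 genes tested, 0 called and a median log2 fold change of 0.01. Il7, the cytokine bound by the product of Il7r, was at 25.7 to 56.4 normalized reads in Ntn1-/- libraries and 35.4 to 49.0 in WT libraries. Groups did not overlap for 2 of the 16, Crlf2 and Stat5b, against 10.5% of all genes. Crlf2, the partner of the IL-7 receptor chain for TSLP, was lower in every Ntn1-/- library, at 907.1 to 1066 against 1142 to 1377. Its log2 fold change was -0.30 (standard error 0.09, limma, adjusted p = 0.248). Stat5b was higher in every Ntn1-/- library, at 1316 to 1432 against 1183 to 1304. The log2 fold change of Stat5b was 0.15 (standard error 0.06, limma, adjusted p = 0.309). Cd80, a CD28 ligand of antigen-presenting cells, differed by -0.64 on the log2 scale (standard error 0.31, limma, adjusted p = 0.351), with Ntn1-/- B and C low at 49.4 and 65.8 and the other libraries at 120.2 to 145.5.

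Genes of T cell subsets gave 8 higher and 7 lower estimates among 15 tested, with 0 called and a median of 0.02. Genes of the helper and the killer lineage were read in all 8 libraries, with Cd4 at 74.8 to 262.9, Cd8a at 65.99 to 171.4 and Cd8b1 at 32.4 to 127.5 normalized reads. Cd4 and Cd8a are also expressed by some myeloid cells. Foxp3, the regulator of regulatory T cells, was at 3.32, 1.90, 19.9 and 26.9 in Ntn1-/- A to D and at 5.76, 12.98, 24.5 and 3.54 in WT A to D. Ntn1-/- C and D and WT C, the highest libraries of Foxp3, were also the 3 highest of Cd3e. Naive T cell and homing genes gave 6 higher and 6 lower estimates among 12, with 0 called. Ccr7, which guides naive T cells to lymph nodes, ran from 17.1 to 48.8 over all libraries.

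Genes of other cells varied between the libraries, some with the markers and some against them. Rag1, a recombinase of immature lymphocytes, was at 7.48, 58.0, 68.8 and 26.9 normalized reads in Ntn1-/- A to D and at 31.1, 0, 0 and 0 in WT A to D. Dntt, the terminal transferase of the same stage, was at 8.31, 87.5, 78.7 and 23.4 in Ntn1-/- A to D and at 73.7, 0, 0 and 1.18 in WT A to D. WT C, the library with the highest Cd3d, Cd3e, Cd2, Cd5 and Cd6, thus held no read of either gene, where a count of 0 allows up to 3 reads, or 3.50 normalized reads. Of the list of 6 immature thymocyte genes, 3 were tested and 0 called, with 2 higher and 1 lower estimate. In limma 2 of the 3, Rag1 and Dntt, had an unadjusted p under 0.05, against 15.6% of all genes. Their adjusted p was 0.253 and 0.308 in limma and 0.589 and 0.775 in DESeq2. The median log2 fold change of 3.32 was the limma value of Dntt, for which DESeq2 gave 1.41. Foxn1, the defining gene of thymic epithelium, was at 0 in 7 of 8 libraries. Of the other 4 genes of that list, Psmb11 was at 10.8 to 26.9, Ccl25, also a gut chemokine, at 24.1 to 64.8, Prss16 at 0.831 to 21.7, with its highest values of 19.9 and 21.7 in Ntn1-/- C and D, and Aire at 0 to 1.90. The sum of the 5 was 35.7 to 108.6 in Ntn1-/- libraries and 65.6 to 90.7 in WT libraries. The part of immature thymocytes and thymic tissue in the values of the markers was not tested.

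Glycam1, a product of the high endothelial venules of lymph nodes, was at 0.831, 2.85, 27.9 and 25.2 normalized reads in Ntn1-/- A to D and at 16.1, 4.63, 184.2 and 3.54 in WT A to D. Its high library was WT C, and its part in the high Cd3d, Cd3e and Cd5 of that library was not tested. Of the list of 6 lymph node stroma genes, 4 were tested and 0 called, with a median log2 fold change of -0.52. Estimates were lower in Ntn1-/-→ApoE-/- aortas for 4 of 4, against 52.4% of all genes. In limma 1 of the 4, the chemokine gene Ccl19, had an unadjusted p under 0.05 (adjusted p = 0.267), against 15.6% of all genes. The sum of the 6 was 843.4 to 1871 in Ntn1-/- libraries and 1211 to 2495 in WT libraries, and Ccl21a was listed at 0 in all 8. The paper lists Ccl21a among the transcripts of its single-cell data from diseased aortas. Whether the 0 reflects absence or a limit of counting was not tested. B cell genes were tested for 9 of 11, with 8 higher estimates, 0 called by limma and a median log2 fold change of 0.54. Groups did not overlap for 2 of the 9, Fcer2a and Bank1, against 10.5% of all genes. DESeq2 called 1 of the 9, Fcer2a, the low-affinity IgE receptor, with an adjusted p of 0.019, against 3.63% of all genes. For Fcer2a limma gave a log2 fold change of 1.67 (standard error 0.38, adjusted p = 0.248). Fcer2a had 3, 9, 8 and 3 reads in WT A to D, and its WT mean of 6.16 normalized reads lay under the filter of 10. The B cell receptor gene Cd79a was at 1.38 to 1.77 times the CD3 mean in Ntn1-/- libraries and at 0.5 to 1.27 in WT libraries. Cd79a and Cd247 were the 2 of 17 genes set against the CD3 mean whose groups did not overlap. Both were picked for that after the ratios were seen. The share of such ratios over all genes was not computed. In normalized reads, 10.5% of all genes had groups that did not overlap. The normalized reads of Cd79a itself overlapped, at 46.5 to 107.6 and 21.2 to 97.9. Macrophage genes gave 9 lower estimates among 10, 0 called and a median of -0.28, with Ntn1-/- B the lowest library on the sum of the list at 22877 normalized reads. NK and cytotoxic genes, which share Cd2 and Cd247 with T cells, gave 3 higher and 2 lower estimates among 5 tested, and Ncr1, which defines NK cells, was at 1.15 to 5.21.

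**Figure D5:**
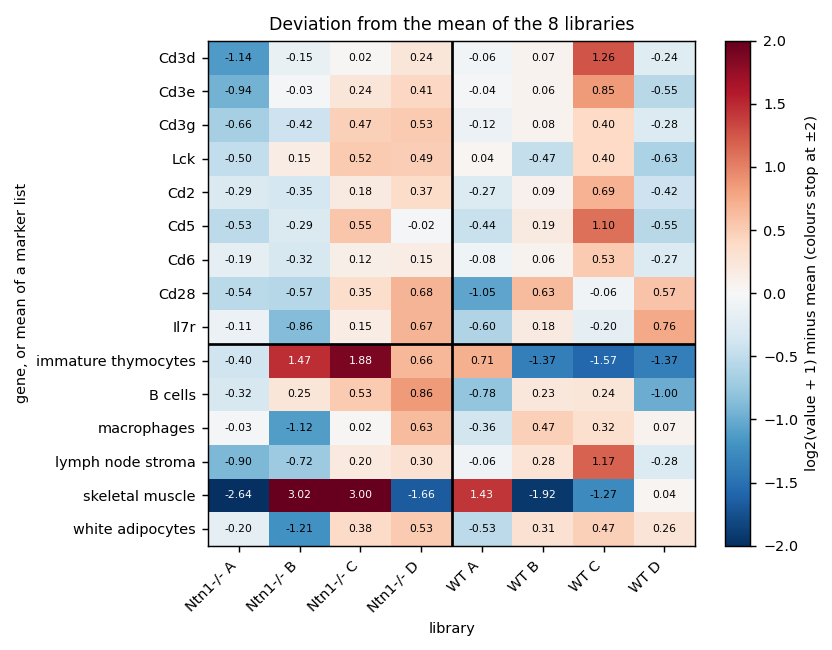
Deviation from the mean of the 8 libraries, log2(normalized reads + 1), for the 9 T cell markers (upper rows) and for the mean over 6 lists of other cells (lower rows), by library (columns; the vertical line parts the groups; colours stop at ±2). Ntn1-/- A is at or below the mean for all 9 markers and Ntn1-/- C above it, and the immature thymocyte and skeletal muscle rows change by more than any marker.

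Without Ntn1-/- B and C, the libraries rich in skeletal muscle and neuron genes, 0 of 9 markers were called and the log2 fold changes were -0.71 for Cd3d, 0.16 for Lck and 0.24 for Il7r. Without these and without WT A and C, 2 libraries were left in each group and the smallest adjusted p of any gene was 0.752, so that no marker could pass. The estimates were then -0.53 for Cd28, -0.37 for Cd3d and 0.55 for Lck. Both analyses were added after the data were seen.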

How the data were processed

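Whole aortas of 8 mice, each a library of its own, were sequenced by the authors as single-end reads of 50 nucleotides, aligned to mm9 with TopHat2 2.0.9 and counted per gene with featureCounts; the featureCounts version, annotation and strand setting are not given in the sources used here. The deposited signal per gene gives reads after scaling by a DESeq2 size factor for the library, here called normalized reads. The deposited table also holds the authors' fold changes and p-values, which were not used. When values were divided by the smallest step of their library, 100.0% of 187360 came out as whole reads (tolerance 0.001), so depth is known. No column belonged to another series, and no pair of the 28 was a duplicate (chi-square per degree of freedom of at least 9.16).

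limma 3.58.1 (eBayes with trend) was run on log2(value + 1) for genes that averaged 10 or more. Benjamini-Hochberg adjustment ran over all 14931 of them, with a threshold of 0.05 and 2-sided p. Log2 fold changes of low genes depend on this scale. Rag1 was at 3.72 in limma and 2.38 in DESeq2, and Dntt at 3.32 and 1.41. Alternatives were pseudocounts of 0.5 and 5, no filter or a mean of at least 50, TMM or library totals, edgeR 4.0.16 and DESeq2 1.42.0 on recovered reads, quality weights, a replicate block, an adjusted p under 0.1 and leaving out libraries, in R 4.3.3. Scripts were tested on simulated data. The markers and all gene lists were chosen with earlier results of these data known. Genes named beside the 9 markers were defining genes of each list, up to 4 per list with the smallest p, genes listed at 0, and the 10 with the nearest profile; some of these genes are not reported here. Positions and exon lengths came from GENCODE vM1, which may not be the annotation the authors used. Labels give separate aortas, and the p-values measure the spread between these mice.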

Additional observations from a re-analysis of the deposited data

Results flagged for a closer look

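Of 88 groups of 4 values examined, 5 held a library far from the other 3, where chance gives about 1 in 20. Cd3d in WT C was at 104.9 normalized reads, against 36.5 to 45.4 in the other WT libraries. Glycam1 in the same library was at 184.2, against 3.54 to 16.1. In WT A, Rag1 was at 31.1 where the other 3 were at 0, Dntt at 73.7 where they were at 0 to 1.18, and Satb1, a chromatin organizer of thymocytes and T cells, at 236.0 where they were at 118.6 to 124.7.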

How the results depend on the processing

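None of the 9 T cell markers was called in any of the 22 other fits, where the lowest adjusted p of a marker was 0.418; the fit on 2 libraries a group could call no gene. Over all genes, 0 were called in every fit but DESeq2, which called 542 of 14930 (3.63%); edgeR called 0, with 2461 at an unadjusted p under 0.05 (limma 2333). Cd3d and Lck kept their direction in every alternative, and Cd3d and Cd5 gave no value at a mean of at least 50. The other 7, with estimates from -0.16 to -0.04, changed sign in at least 1 alternative. On the log2 scale, library totals gave 0.022 for Cd2, 0.032 for Cd28 and 0.031 for Cd3g. For Cd3g, edgeR with TMM gave 0.030, edgeR with the size factors of DESeq2 0.029 and DESeq2 0.029. Quality weights gave 0.049 for Cd28, 0.14 for Il7r and 0.011 for Cd3g. Without Ntn1-/- B and C the values were 0.013 for Cd2, 0.047 for Cd28, 0.24 for Il7r, -0.18 for Zap70 and -0.18 for Lat. Without these and WT A and C they were 0.084 for Cd6, 0.20 for Cd2, 0.032 for Cd3g and -0.17 for Zap70. Leaving out each library in turn gave -0.37 to 0.13 for Cd3e, -0.22 to 0.17 for Cd3g, -0.20 to 0.17 for Cd2, -0.35 to 0.20 for Cd5, -0.23 to 0.036 for Cd6, -0.40 to 0.16 for Cd28, -0.31 to 0.20 for Il7r, -0.23 to 0.39 for Zap70 and -0.060 to 0.36 for Lat, and called 0 genes each time (1489 to 2377 at an unadjusted p under 0.05). The cause was not tested. Same-letter correlations of deviations were -0.008, -0.304, 0.151 and -0.256, against -0.659 to 0.636 between different letters. These few values show no pairing of the samples by replicate letter but cannot exclude it. No gene passed with the replicate block, where limma left 1806 and edgeR 1805 genes under an unadjusted p of 0.05. With 4 mice a group, folds from 0.371 (Cd3d) to 1.99 (Lck) lay within the 95% confidence intervals of at least 1 marker. The data do not decide between the folds within a marker's interval.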
